A study of Mus musculus with 4 samples.

Results

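The tripartite motif (TRIM) genes encode a large family of proteins, most of them ubiquitin ligases, and 49 of them are described here in macrophages with and without the m6A methyltransferase gene Mettl3. The members were taken by name: every row of the deposited expression table whose symbol is Trim followed by a digit, Trim25 left out, with a summed count of at least 40 over the 4 libraries. The table held 55401 genes and 68 such rows; 49 reached the minimum, 11 had no count in any library and 8 had between 4 and 38 counts. Just inside the minimum were Trim15 and Trim55 with 86 counts each, and just outside it Trim9 with 38 counts, all in knockout 3, and Trim43a with 37. Trim38, Trim69, Trim10 and Trim40 were among the 8, and Trim31 and Trim58 among the 11. These 19 genes are not described further.

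A TRIM protein carries, from its start, a RING finger that recruits a ubiquitin-conjugating enzyme, 1 or 2 B-boxes and a coiled coil, and it ends in a domain that differs between subfamilies and often picks the substrate. The commonest ending is the SPRY domain, and SPRY members such as the relatives of primate TRIM5 bind viral capsids or signalling proteins. Interferon raises the transcription of part of the family in macrophages, through response elements near the start site, and family members in turn tune Toll-like receptor, RIG-I and STING signalling.

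The control macrophages were grown with M-CSF from bone marrow of C57BL/6 mice with the genotype Mettl3fl/fl, and the knockout macrophages from LysM-cre, Mettl3fl/fl mice. Both groups share the floxed gene, the age of 8 weeks and 24 h of culture with MC38, a mouse colon carcinoma line, and a culture without tumour cells or a group with Cre alone was not analysed here. LysM-cre is driven from the lysozyme gene Lyz2 in myeloid cells. Each group had 2 libraries, numbered 1 and 3, which the series' design text calls biological replicates; how many mice stood behind each is not stated, and the p-values measure the spread between these libraries.

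Total counts ran from 55100415 to 79209870 per library. The male-specific Ddx3y measured 71.1 and 89.0 CPM (counts scaled to 1000000 per library) for number 1 against 0.311 and 0.139 for number 3, and Xist the other way round, so number and the sex of the cells cannot be told apart; the main members' fold changes are therefore followed by the difference in each number. Mettl3 itself gave 18.3 and 23.2 CPM in controls against 13.9 and 19.6 CPM in knockouts (log2 fold change -0.31, SE 0.27; edgeR adjusted p = 1), a value over the whole gene that does not test the deletion. All 10 macrophage markers had counts and summed to between 19280 and 33190 FPKM, the deposited unit that scales for transcript length and library depth. Most of each sum was Lyz2, with 14940 and 28290 FPKM in controls against 17410 and 17490 FPKM in knockouts. Of the 10 epithelial markers, 7 (Epcam, Krt8 and Krt18 among them) were at 0 in every library, and only Krt19 had enough counts to test. The 10 fibroblast markers summed to 46.9 and 95.6 FPKM in the controls and to 37.6 and 60.1 FPKM in the knockouts, and all 10 had fold changes below 0. Neutrophil markers summed to 135.4 and 70.3 FPKM in controls against 121.5 and 64.1 FPKM in knockouts, nearly all of it from Mmp8 and S100a8. Mmp8 gave 116.6 and 46.7 FPKM in controls against 96.1 and 29.8 FPKM in knockouts. S100a8 gave 18.1 and 20.9 FPKM against 24.55 and 31.1 FPKM. Of the 10 neutrophil markers, Cxcr2, Ly6g and Retnlg were at 0 in every library. Markers of dendritic cells, B cells, T or NK cells and mast cells summed to at most 6.28 FPKM in any library. The part of these markers in the results was not tested.

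No member passed the test between genotypes. The largest differences among well-covered members were in a chromosome 7 cluster of Trim30 and Trim5 relatives, in Trim21 and, downward, in Trim47. Trim21, Trim34a, Trim30a, Trim30c and Trim30d stood higher in the knockouts by 0.59 to 0.86 on the log2 scale. Trim47, named after its values were seen, had a log2 fold change of -0.59. The test, edgeR's quasi-likelihood test with Benjamini-Hochberg adjustment, called 0 of 17260 genes (0%) and 0 of the 49 members; 391 genes, 5 members among them, had an unadjusted p under 0.05. DESeq2 called 73 genes, 0.38% of those it adjusted, and 0 members. Where so few genes were called, a missing call does not show that a member did not differ. Of the 49 members, all of which entered the test, 33 had a fold change above 0, against 49.8% of all tested genes, with a median log2 fold change of 0.10 against -0.0013 over all genes. This tally leans on the 10 genes of the cluster, which all lay above 0: of the other 39 members 23 did, with a median of 0.0278. In 12 members both knockouts lay above both controls, where 13.1% of all tested genes did so, and in 9 members both lay below, where 13.4% did. Outside the cluster 5 of the 39 (12.8%) lay above and 9 (23.1%) below. The 5 members at an unadjusted p under 0.05 all stood higher, as did 1.3% of all tested genes, and 0 stood lower at that p, as did 0.962% of all tested genes. These were Trim21, Trim34a, Trim30a, Trim30c and Trim30d. For every member the edgeR adjusted p was 1; from here on ± marks the standard error of a log2 fold change over 2 libraries per group, and unadjusted p-values are edgeR's. In bulk RNA a change in the share of cells that express a gene and a change in RNA per cell cannot be told apart.

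Most of these genes sit side by side in a cluster on chromosome 7, from 104218793 to 104507849 in the deposited coordinates, which equal those of GRCm38 for 40 of the 49 members. It holds, in order, Trim6, Trim34a, Trim5, Trim12a, Trim34b, Trim12c, Trim30b, Trim30c, Trim30a and Trim30d, all of the SPRY class. The promoters of all genes in RefSeq (GRCm38.p6), the members among them, were searched on both strands for the core of the interferon-stimulated response element. This core, the letters GAAA, any 2 bases and GAAA, is bound by interferon-activated factors. The sequences that follow run 5′ to 3′ on the gene's strand, from 100 bases before the RefSeq start site to 30 bases from it on, with matches in capitals; a match on the opposite strand reads TTTC, any 2 bases and TTTC. Shown are the 6 cluster genes with a match, their close paralogues Trim30c and Trim34b without one, and Trim21.
Trim30a, chr7:104465164-104465293, minus strand: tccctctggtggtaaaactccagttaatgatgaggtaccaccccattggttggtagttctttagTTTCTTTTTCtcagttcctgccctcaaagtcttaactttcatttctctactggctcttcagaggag
Trim30d, chr7:104507820-104507949, minus strand: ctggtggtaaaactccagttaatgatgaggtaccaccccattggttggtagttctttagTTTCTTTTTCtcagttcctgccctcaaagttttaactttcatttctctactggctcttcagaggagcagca
Trim30c, chr7:104400749-104400878, minus strand: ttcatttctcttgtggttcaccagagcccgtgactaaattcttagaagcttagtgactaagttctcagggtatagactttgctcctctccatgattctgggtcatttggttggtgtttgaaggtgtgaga
Trim5, chr7:104288077-104288206, minus strand: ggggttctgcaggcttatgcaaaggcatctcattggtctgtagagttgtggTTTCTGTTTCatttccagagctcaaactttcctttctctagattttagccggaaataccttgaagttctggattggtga
Trim12a, chr7:104315466-104315595, minus strand: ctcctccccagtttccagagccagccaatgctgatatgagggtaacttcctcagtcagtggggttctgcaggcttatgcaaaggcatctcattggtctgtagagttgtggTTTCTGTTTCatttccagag
Trim12c, chr7:104353320-104353449, minus strand: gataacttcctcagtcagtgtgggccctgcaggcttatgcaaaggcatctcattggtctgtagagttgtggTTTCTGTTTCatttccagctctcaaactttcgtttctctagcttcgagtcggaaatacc
Trim34a, chr7:104244357-104244486, plus strand: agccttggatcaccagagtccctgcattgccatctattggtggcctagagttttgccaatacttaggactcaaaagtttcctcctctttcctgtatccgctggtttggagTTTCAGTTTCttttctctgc
Trim34b, chr7:104329371-104329500, plus strand: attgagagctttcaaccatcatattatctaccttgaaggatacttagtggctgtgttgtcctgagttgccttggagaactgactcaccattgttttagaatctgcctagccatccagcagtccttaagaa
Trim21, chr7:102565453-102565582, minus strand: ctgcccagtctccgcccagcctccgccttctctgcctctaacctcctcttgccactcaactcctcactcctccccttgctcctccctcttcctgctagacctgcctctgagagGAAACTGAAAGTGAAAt

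Trim30a and Trim30d carry the same match, TTTCTTTTTC, with its first base 36 and 41 bases before their start sites (positions -36 and -41), and their promoters were 93.6% identical over 295 bases compared without gaps. A second RefSeq start of Trim30a has these letters at 2. The promoters of Trim5 and Trim12a were 100% identical over 241 bases, so both hold TTTCTGTTTC, at -49 in Trim5 and, because its annotated start lies farther upstream, at 10 in Trim12a; Trim12c holds it at -29. Trim34a holds TTTCAGTTTC at 10. Trim30c aligned with Trim30a at 81.4% over 199 bases, and the bases lined up with the match, at -137 and so outside the stretch shown, read TTCCTTTTTC, which differ by T3C (counted from 1 at the 5′ end of the match) so that the letters searched are not there. Trim34b, Trim6 and Trim30b had no match; for Trim30b the RefSeq start lies 11238 bases from the start in the deposited table, so its window is not that of the measured gene model. Trim21 holds overlapping matches, GAAACTGAAA and GAAAGTGAAA, at 13 and 19. Over promoters of 300 bases, the letters were found in 6 of the 10 cluster genes (60%), in 3 of the other 26 members with a RefSeq promoter (Trim21, Trim26 and Trim2; 11.5%), and in 3.99% of the 27025 genes with a promoter. The promoters of Trim12a and Trim12c were 72.3% identical over 260 bases. With the near-identical pairs above, the 6 cluster genes are thus not 6 separate cases. For Trim2 only 1 of several RefSeq promoters held a match. The groups of Trim26 and Trim2 overlapped, with log2 fold changes of 0.25 and 0.52 (edgeR unadjusted p = 0.291 and 0.402). The gamma-activated site (TTC, any 3 bases and GAA, on both strands) was found in 1 of the 10, in Trim30c, against 9.55% of all genes. A match is a run of letters, not a measured binding site.

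Trim30a, which restrains Toll-like receptor signalling in mouse macrophages by removing TAB2 and TAB3, was the most abundant member per length, with a mean of 56.2 FPKM. Controls 1 and 3 gave 203 and 184 CPM, from here on by library sizes scaled with TMM; knockouts 1 and 3 gave 272 and 370.5 CPM. Both knockouts lay above both controls, and knockout 3 was the highest library. Its log2 fold change was 0.73 ± 0.21 (edgeR unadjusted p = 0.0215; 0.42 in number 1, 1.01 in number 3).

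Trim30d, a close paralogue, stood second with a mean of 22.8 FPKM. Its controls gave 81.7 and 54.3 CPM, its knockouts 113.6 and 132.4 CPM. The groups did not overlap, and control 3 was the lowest library. The log2 fold change of 0.86 ± 0.25 was the largest of the cluster (edgeR unadjusted p = 0.0218; 0.48 in number 1, 1.28 in number 3). Trim30d was the 1 member called by DESeq2 when library number entered as a block (adjusted p = 0.0280), a fit that called 171 genes, 1.05% of those it adjusted, while edgeR with the block called 0 genes. Trim30c followed the same order of libraries at a lower level, 12.4 and 8.17 CPM in controls against 16.97 and 19.5 CPM in knockouts. Its log2 fold change was 0.83 ± 0.29 (edgeR unadjusted p = 0.0392; 0.46 in number 1, 1.26 in number 3). Trim30b gave 5.85 and 3.46 CPM in controls against 6.67 and 6.29 CPM in knockouts, so its knockouts cleared control 1 by little (0.19 in number 1, 0.86 in number 3). Its log2 fold change was 0.48 over all libraries, 0.15 without control 3 and 0.91 without control 1. These genes share stretches of sequence, but few whole reads: 3.48% of the 150-base words of the longest Trim30a transcript occurred in Trim30d, and 4.02% of those of Trim30d in Trim30a. Trim30d also overlaps the processed pseudogene Gm16464 on its own strand, which had 408 counts in all.

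Trim34a, a relative of human TRIM34, which binds retroviral capsids, had the smallest p of the cluster. It gave 36.7 and 37.5 CPM in controls against 53.6 and 63.4 CPM in knockouts. The controls were nearly level, and both knockouts lay above them. The log2 fold change was 0.66 ± 0.17 (edgeR unadjusted p = 0.0135; 0.55 in number 1, 0.76 in number 3). It was the only gene of the cluster with at least 0.5 within both numbers and groups apart, as 2.99% of all tested genes were. Its paralogue Trim34b gave 3.37 and 2.24 CPM in controls against 2.45 and 3.53 CPM in knockouts, which overlapped. Of the 150-base words of Trim34b, 12.8% occurred in Trim34a, and 8.81% of those of Trim34a occurred in Trim34b. Part of the reads of both genes thus cannot be placed with certainty. The antisense gene Gm47248, inside Trim34a, had 36 counts in all.

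**Figure D1:**
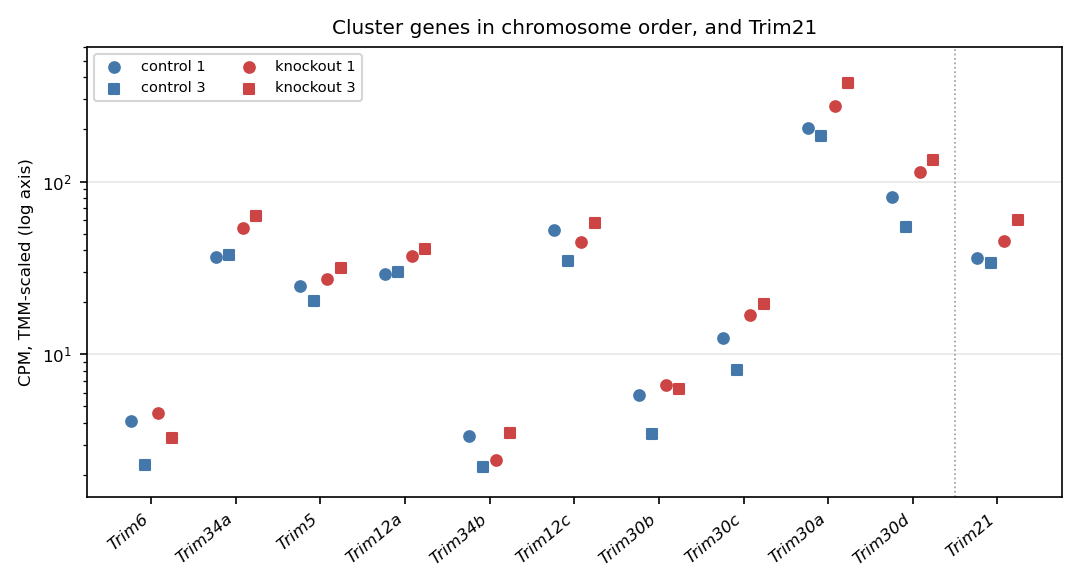
Level of the 10 cluster genes in chromosome order and of Trim21 (right of the dotted line), in CPM on a log axis, 1 point per library; circles are libraries numbered 1, squares those numbered 3, blue controls and red knockouts. For Trim30a, Trim30c, Trim30d, Trim34a, Trim12a, Trim5, Trim30b and Trim21 both red points lie above both blue points, while for Trim6, Trim34b and Trim12c they overlap.

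The mouse relatives of TRIM5 had smaller differences. Trim12a gave 29.2 and 29.9 CPM in controls against 37.0 and 41.0 CPM in knockouts, with groups apart and a log2 fold change of 0.40 ± 0.17 (edgeR unadjusted p = 0.0658; 0.34 in number 1, 0.45 in number 3). Trim5 stood at 25.0 and 20.4 CPM (controls) against 27.2 and 31.8 CPM, also apart, with 0.12 within number 1 and 0.64 within number 3. Its log2 fold change was 0.38 over all libraries, 0.24 without control 3. Trim12c gave 52.6 and 34.9 CPM in controls against 45.0 and 57.3 CPM in knockouts; its groups overlapped, and the sign within number 1 (-0.23) was opposite to that within number 3 (0.72). The 6 cluster genes with an unadjusted p of 0.05 or more had edgeR p-values from 0.0658 at Trim12a to 0.839 at Trim34b. Trim6, whose product makes unanchored ubiquitin chains in interferon signalling, stood at 4.14 and 2.28 CPM (controls) against 4.61 and 3.27 CPM, with overlapping groups (0.15 in number 1, 0.52 in number 3).

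Across the cluster all 10 genes had a fold change above 0, with a median log2 fold change of 0.44. The median was 0.26 within number 1 and 0.74 within number 3, and it was 0.723 without control 1 and 0.328 without control 3. In 7 of the 10 the knockouts lay above both controls (13.1% of all tested genes), and in 0 below (13.4% of all tested genes). Within number 3 the difference was greater than within number 1 for all 10, as for 48.6% of all tested genes. Control 3 lay below control 1 by a median of -0.58 on the log2 scale, while knockout 3 lay above knockout 1 by a median of 0.22. With 1 library per group and number, the difference between the numbers has no test. Summed over the cluster, the deposited FPKM came to 108.5 and 91.8 in the controls and to 140.3 and 174.6 in the knockouts. That was 36.5% and 31.9% of the summed FPKM of all 49 members in the controls, and 42.1% and 46.3% in the knockouts. The other 39 members summed to 189.1 and 196.3 FPKM in the controls and to 192.7 and 202.3 FPKM in the knockouts.

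**Figure D2:**
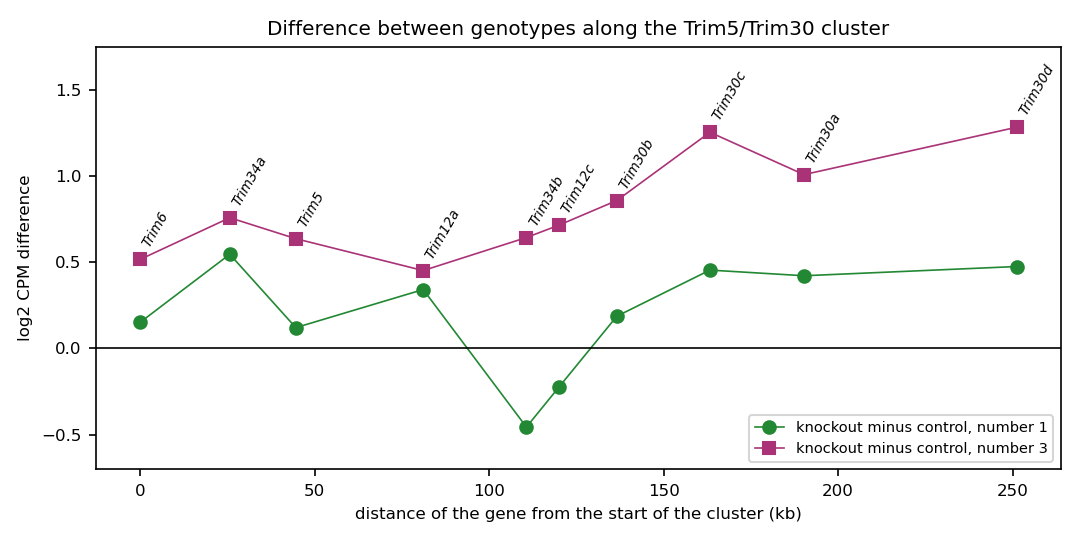
Knockout minus control log2 CPM within number 1 (green circles) and number 3 (purple squares) for the 10 cluster genes, against the distance of each gene from the start of the cluster in kb. The points of number 3 are all above 0, and those of number 1 fall below 0 at Trim34b and Trim12c in the middle.

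Of the 162 other genes listed within 1 Mb of the cluster, 12 could be tested, most of them predicted genes. Their median log2 fold change was 0.09, and 7 lay above 0. Among them are 2 globin genes, markers of red cells. Hbb-bt gave 1.40 and 0.662 CPM in controls and 0 in both knockouts. DESeq2 called it (DESeq2 adjusted p = 0.00156), while edgeR did not (edgeR unadjusted p = 0.0035). Hbb-bs gave 2.95 and 1.53 CPM in controls against 1.47 and 0.126 CPM in knockouts. The 9 red cell and megakaryocyte markers, these among them, summed to 7.66 and 4.72 FPKM in controls against 2.56 and 0.413 FPKM in knockouts. Fam160a2, of an endosome trafficking complex, gave 46.2 and 32.7 CPM against 45.0 and 39.5 CPM, with overlapping groups.

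Among the 16 other SPRY members with a RING, Trim21 resembled the cluster. Trim21, a cytosolic antibody receptor that sends antibody-coated virus to the proteasome, lies on the same chromosome, from 102557921 to 102565486. It gave 36.1 and 33.6 CPM in controls against 45.2 and 60.0 CPM in knockouts, with groups apart. Its log2 fold change was 0.59 ± 0.21 (edgeR unadjusted p = 0.0381; 0.32 in number 1, 0.84 in number 3), and it was 0.37 without knockout 3. It was the only one of the 16 with both knockouts above both controls, where 13.1% of all tested genes had them, while 6 had both knockouts below, where 13.4% of all tested genes had them: Trim47, Trim65, Trim11, Trim68, Trim15 and Trim72 (Trim47, Trim65, Trim11, Trim68 and Trim15 named after their values were seen). Trim47 gave 13.1 and 10.2 CPM in controls against 9.34 and 6.17 CPM in knockouts, a log2 fold change of -0.59 ± 0.33 (edgeR unadjusted p = 0.134; -0.49 in number 1, -0.73 in number 3). Trim65, a ligase of the RNA sensor MDA5 and the neighbour of Trim47 on chromosome 11, stood at 28.8 and 27.3 CPM (controls) against 23.7 and 18.8 CPM, a log2 fold change of -0.40 ± 0.21 (edgeR unadjusted p = 0.117; -0.28 in number 1, -0.53 in number 3). Trim35, with the highest mean of these 16 at 20.2 FPKM, gave 92.4 and 116.6 CPM in controls against 96.5 and 109.8 CPM in knockouts, fully overlapping. The median of the 16 was 0.0046, and 8 lay above 0.

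Trim14 and Trim16 have the SPRY domain without a RING. Trim14, an adaptor of MAVS signalling on mitochondria, stood at 29.5 CPM in control 1, 17.7 CPM in control 3, 28.6 CPM in knockout 1 and 33.4 CPM in knockout 3. Control 3 alone was low, and the difference came to -0.05 for number 1 and 0.91 for number 3. Its log2 fold change was 0.39 over all libraries, 0.07 without control 3. Trim14 overlaps Nans on the opposite strand, and the sources used here do not give whether the counting used the strand.

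Nuclear cofactors with a PHD finger and bromodomain form a class of 4. Trim28, which KRAB zinc finger proteins recruit to silence retroelements, had a mean of 20.5 FPKM. It gave 85.3 and 112.2 CPM in controls against 92.9 and 89.2 CPM in knockouts, a log2 fold change of -0.12 ± 0.19 (edgeR unadjusted p = 0.566; 0.12 in number 1, -0.33 in number 3). Trim66, a germ cell relative, had groups apart with a log2 fold change of 1.49 ± 0.78 (edgeR unadjusted p = 0.120; 1.34 in number 1, 1.36 in number 3), but from 12 and 8 counts in the controls to 38 and 30 counts in the knockouts. That is 0.0288 FPKM on average, the lowest of all members.

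Trim56, a ligase of STING and Toll-like receptor signalling, gave 91.7 CPM in both controls against 97.1 and 100.6 CPM in knockouts, a log2 fold change of 0.11 ± 0.14 (edgeR unadjusted p = 0.471). Its knockouts cleared the controls, by less than the standard error of the difference. Trim8, an activator of NF-kB, stood at 88.9 and 73.8 CPM (controls) against 86.6 and 81.8 CPM, with overlapping groups. Trim13, anchored in the endoplasmic reticulum membrane, stood at 14.7 and 10.4 CPM (controls) against 11.3 and 16.7 CPM and had opposite signs within the numbers; it overlaps the long noncoding gene Dleu2 on the other strand. Trim23, which ends in an ARF GTPase domain, stood at 18.1 and 19.7 CPM (controls) against 18.5 and 22.9 CPM, and Trim37, with a MATH domain, at 15.6 and 18.9 CPM against 18.8 and 18.2 CPM.

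In the NHL and filamin class, Trim3, an endosomal ligase, was the most abundant at a mean of 8.35 FPKM, and gave 50.7 and 37.0 CPM in controls against 43.5 and 38.9 CPM in knockouts. Trim45 stood at 1.80 and 2.57 CPM (controls) against 3.21 and 2.88 CPM, with groups apart and a log2 fold change of 0.48 ± 0.38 (edgeR unadjusted p = 0.270; 0.82 in number 1, 0.16 in number 3). That fold change was 0.25 without control 1 and 0.76 without control 3.

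The COS box class, which binds microtubules and includes the muscle ligases Trim54, Trim55 and Trim63, was low, with at most 0.396 FPKM on average. Trim36, its most abundant tested gene, gave 1.23 and 3.10 CPM in controls against 1.58 and 2.82 CPM in knockouts, where number separated the libraries. Trim54 had 41 and 40 counts in the controls, 17 in knockout 1 and 0 in knockout 3. Trim72, a muscle membrane repair gene of the SPRY class, had 42 and 45 counts in the controls, 24 in knockout 1 and 0 in knockout 3. Both had groups apart and at least 0.5 lower within both numbers, as 3.99% of all tested genes had, with log2 fold changes of -2.38 ± 1.69 and -1.98 ± 1.73 (edgeR unadjusted p = 0.224 and 0.310). Without knockout 3 the fold changes were -1.36 and -0.96. The commonest low count in the table is 4, taken here as 1 read pair. The fits took the counts as given, not as read pairs, so standard errors and p-values of members with few counts are uncertain. With 1 pair read as 4 counts, a gene listed at 0 in knockout 3 could have up to 12 counts there (3 pairs), or 0.152 CPM by total count. That limit covers counting error only. Together 10 members, these among them, had a mean under 1 CPM, and 3 of the 10 lay above 0. Of the 39 members with a mean of at least 1 CPM, the 10 cluster genes among them, 30 lay above 0. Of all tested genes with such a mean, 51.5% did.

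**Figure D3:**
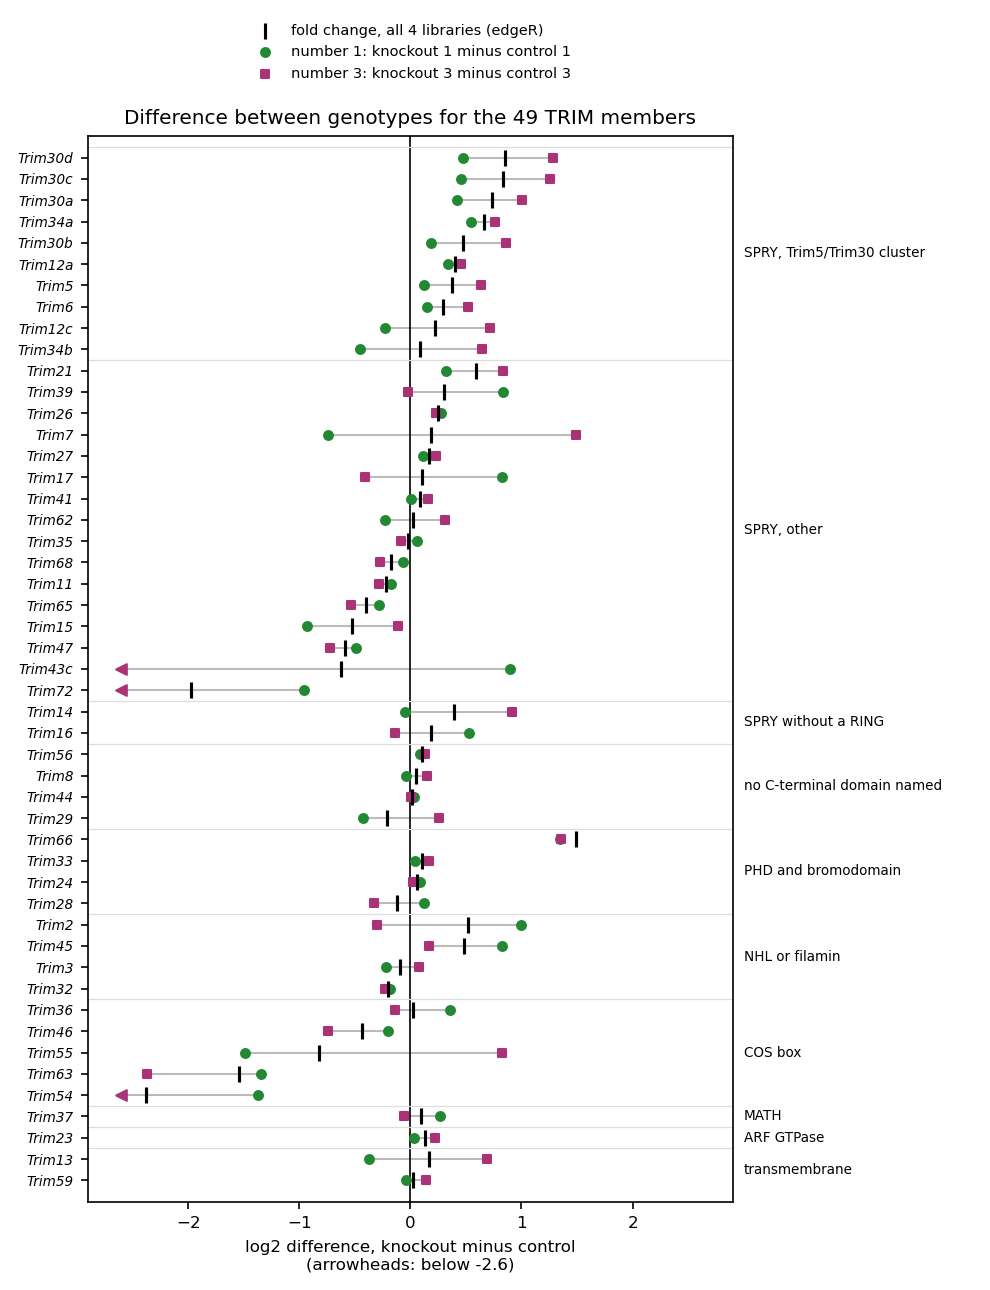
Log2 difference of knockout minus control for the 49 members, grouped by the domain at the end of the protein; black bars are the fold change over all 4 libraries, green circles and purple squares the differences within numbers 1 and 3, and arrowheads mark values beyond the left edge. The cluster at the top lies right of 0 in all 4-library values, from 0.09 at Trim34b to 0.86 at Trim30d, while the other classes scatter around 0 and the members with few counts spread the widest.

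**Figure D4:**
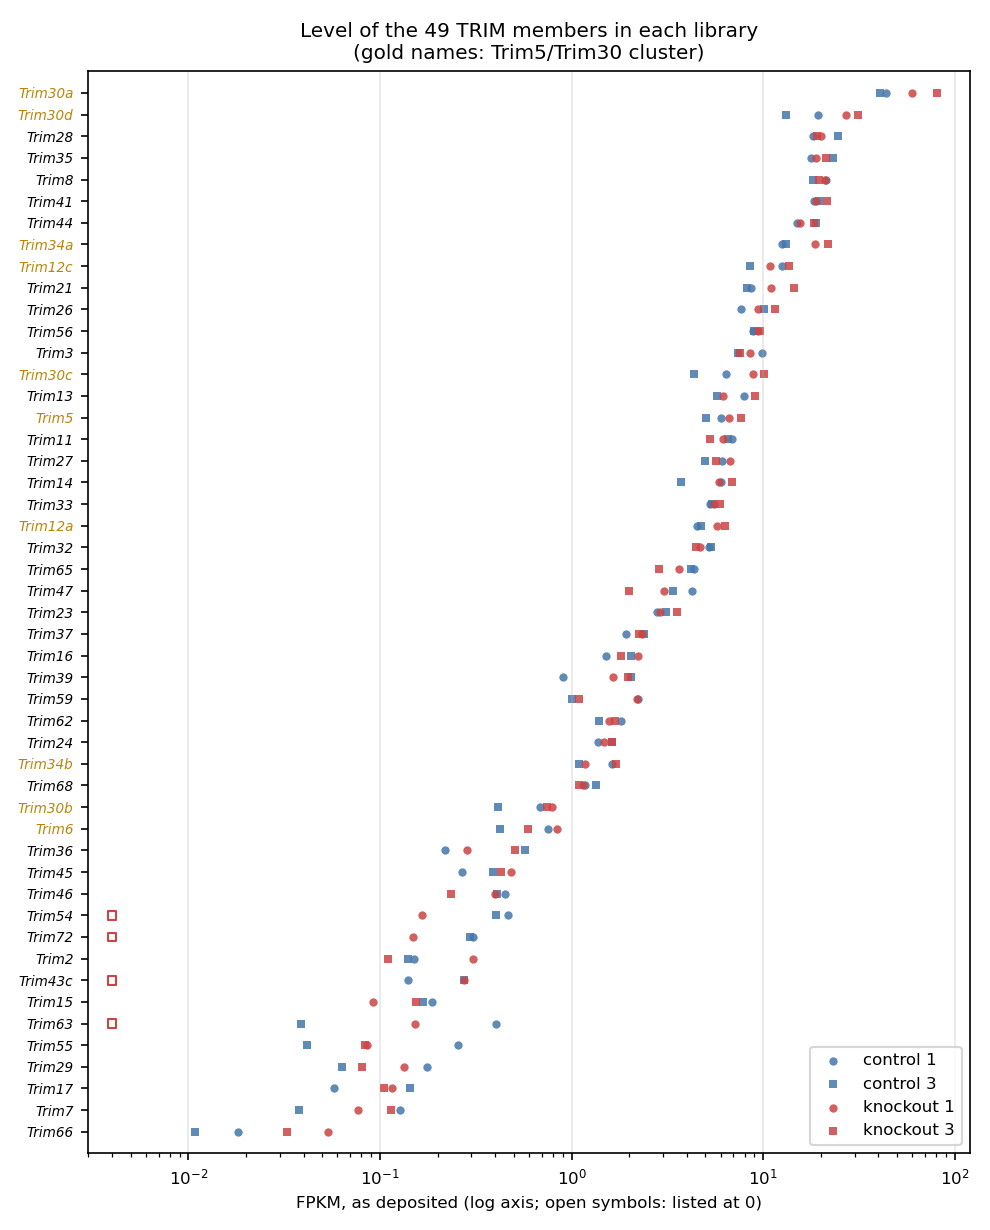
Deposited FPKM of the 49 members in each library on a log axis, ordered by mean, with cluster genes in gold and open symbols at the left edge for libraries listed at 0. Means run from 0.0288 FPKM at Trim66 to 56.2 FPKM at Trim30a, and Trim54, Trim72, Trim43c and Trim63 were listed at 0 in knockout 3.

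Per length, the order of the 49 members began with Trim30a and Trim30d, at means of 56.2 and 22.8 FPKM. The next 5, Trim28, Trim35, Trim8, Trim41 and Trim44 (Trim41 and Trim44 named after their values were seen), lay between 17.0 and 20.5 FPKM, and their libraries overlapped, so this order is not resolved. Trim34a followed at 16.6 FPKM and Trim12c at 11.4 FPKM. Trim30d stood at 13.2 FPKM in control 3, below all 5 of these genes there, and at 31.4 FPKM in knockout 3, above them all. The median member stood at 3.09 FPKM, against 2.69 FPKM for all tested genes.

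Some TRIM genes carry other symbols. Of 8 listed, 7 could be tested, Trim25 included. Pml, the organiser of nuclear bodies, gave 56.4 and 53.6 CPM in controls against 54.7 and 66.8 CPM in knockouts. Mefv, which encodes the inflammasome protein pyrin, stood at 170.9 and 107.6 CPM (controls) against 126.2 and 189.0 CPM, with -0.44 within number 1 and 0.81 within number 3. Mid1, Mid2, Bspry and Cmya5 had log2 fold changes of 0.34, -0.51, 0.17 and -1.61, and edgeR unadjusted p-values of 0.621, 0.503, 0.807 and 0.237. Trim25, the ligase of RIG-I, is given for comparison: 97.7 and 97.6 CPM in the controls and 249.7 and 261.8 CPM in the knockouts, a log2 fold change of 1.39 ± 0.15 (DESeq2 adjusted p = 8.31e-07).

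Over all 17260 tested genes, 49.8% lay above 0 and both knockouts lay above both controls for 13.1%. At an unadjusted edgeR p under 0.05 there were 391 genes. DESeq2 called 0.38% of the genes it adjusted, or 1.05% with library number as a block. The genes around the family gave the following counts, to be read beside these shares. Of 35 tested interferon-stimulated genes, 34 lay above 0 and both knockouts lay above both controls for 30, with medians of 0.61 (number 1) and 1.13 (number 3); edgeR called 0, with 26 at an unadjusted p under 0.05, and DESeq2 called 8, or 20 with library number as a block. Their 4 genes with the smallest p, Ifit2, Ifit1, Rtp4 and Mx1, had log2 fold changes of 1.91, 1.57, 1.23 and 1.65, against 0.86 for the highest cluster gene. The median log2 fold change of the 35 was 0.83, against 0.44 for the cluster. Of 24 substrates and signalling partners of TRIM proteins, edgeR and DESeq2 called 0 without the block and DESeq2 1 with it (Irf7, adjusted p = 0.0293), 0 had an unadjusted p under 0.05 by edgeR, 16 lay above 0 and the median was 0.04. Irf7, a factor that drives interferon genes and that the interferon list holds too, stood at 57.2 and 88.3 CPM (controls) against 90.9 and 154.5 CPM, Traf6 at 52.1 and 37.4 against 54.8 and 51.4 CPM, and Trp53 and Rela had log2 fold changes of -0.25 and -0.18. Of 14 ubiquitin-conjugating enzymes, 11 lay above 0 with a median of 0.21, 0 were called by either tool, with the block or without it, and 0 had an unadjusted p under 0.05 by edgeR. Ube2n, which builds K63 chains with several TRIM ligases, stood at 45.6 and 42.1 CPM (controls) against 50.3 and 59.7 CPM, Ube2e2 at 11.0 and 11.3 against 7.85 and 8.15 CPM, and Ube2v2 and Ube2g2 were high in knockout 3 alone, at 17.8 and 65.7 CPM. Of 26 other RING ligases of innate signalling, 13 lay above 0 with a median of -0.0085, 0 were called by either tool, with the block or without it, and 2 had an unadjusted p under 0.05 by edgeR. Rnf144b stood at 30.8 and 38.7 CPM (controls) against 20.5 and 22.6 CPM, and Dtx3l, the partner of Parp9, at 126.5 and 98.9 against 151.2 and 183.4 CPM. Rnf213 stood at 730.8 and 796.2 against 953.2 and 1379 CPM, and Peli1 at 53.2 and 54.4 against 63.1 and 67.8 CPM.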

How the data were processed

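Poly(A) RNA of 4 libraries (2 controls, 2 knockouts) was made into dUTP libraries and sequenced as read pairs, per the labels' protocols. Per the submitters' processing notes, cutadapt 1.9, HISAT2 2.0.4, StringTie 1.3.4d, edgeR and DESeq2 were used; the genome build, the use of the strand and the handling of reads with several matches are not given in the sources used here. Per gene and library, the deposited table holds the authors' estimated count, in whole numbers that were not normalized. The deposited FPKM values are the authors' own, with 0 written as 0.0001. A further 4 value columns matched no sample and were not used. Of the 49 members, 40 had the same start and end in GENCODE M21 (GRCm38).

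The estimated counts were tested with edgeR 4.0.16 (R 4.3.3; TMM, filterByExpr, glmQLFit), two-sided, without a block, over all 17260 genes kept, at an adjusted p under 0.05. Each standard error is the fold change over the root of F, and within-number differences are from log2 CPM with a prior count of 2. DESeq2 1.42.0 and limma 3.58.1 on log2(FPKM + 1) and log2(FPKM + 0.1), RLE scaling, no filter, library number as a block, and leaving out each library were alternatives. Only edgeR with and without the block, DESeq2 without it and limma on log2 CPM were run on simulated counts. DESeq2 with the block, limma on FPKM, RLE scaling and the fits leaving out a library were not. An exact permutation test of 2 against 2 cannot reach 0.05.

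The members and gene lists were chosen with earlier results of these data known. Named genes are every cluster gene, the most abundant and the smallest-p gene of each other class, members apart between groups by at least 0.5 within both numbers, TRIM genes under other symbols, and up to 4 genes of each other list. Promoters are RefSeq's (36 of 49 members matched).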

Additional observations from a re-analysis of the deposited data

Results flagged for a closer look

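For 10 members the difference between knockout and control had opposite signs within library numbers 1 and 3, with at least 0.2 on the log2 scale each way. In 20 of the 49 members, and in 8116 of the 17260 tested genes, the signs were opposite at any size. The difference between the numbers was not tested, since each holds 1 library per group. The values for number 1 and number 3 were -0.23 and 0.72 for Trim12c, and -0.46 and 0.64 for Trim34b, which lie next to each other in the chromosome 7 cluster. They were -0.37 and 0.69 for Trim13, -0.23 and 0.31 for Trim62, and 0.99 and -0.30 for Trim2, which stood at 6.77 CPM in knockout 1 and between 2.48 and 3.39 CPM in the other libraries. The remaining 5 had between 86 and 205 counts in all: Trim7 with -0.74 and 1.49, Trim17 with 0.82 and -0.41, Trim29 with -0.42 and 0.26, Trim43c with 0.89 and -4.38, and Trim55 with -1.49 and 0.82. Trim17 shares 15.9% of its 150-base words with the histone gene Hist3h2a, and it overlaps H2aw on its own strand (4405 counts). Trim7 overlaps Gm12184 on the other strand (4178 counts), and Trim43c overlaps 9330159M07Rik likewise (618 counts). The counts of Trim17, Trim7 and Trim43c are therefore uncertain.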

How the results depend on the processing

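Under RLE scaling, no filter, DESeq2, limma on FPKM and the replicate block, each of the 25 named members kept the sign of its fold change. The count of all genes called was 0 by edgeR and 73 by DESeq2. The median of the cluster was 0.324 by limma on log2(FPKM + 1), a scale that understates the change of low genes. The labels do not say that library numbers pair the libraries; deviations of same-numbered libraries from their group means correlated at 0.419 over 17260 genes. With the replicate block edgeR called 0 genes and DESeq2 171 genes (1.05%) and 1 member, Trim30d (log2 fold change 0.88, adjusted p = 0.0280), and no other setting called a member. Leaving out 1 library in turn, which mixes number with genotype, moved the median of the cluster between 0.328 and 0.723, that of all members between 0.0422 and 0.164, the members with both knockouts above both controls between 16 and 25, and those below between 9 and 17, where a group of 1 library separates more easily. The sign turned in 15 of 100 such values, in 11 of the 25 named members, with log2 fold changes of -0.0400 to 0.56 for Trim12c, -0.15 to 0.44 for Trim13, -0.0315 to 0.29 for Trim23, -0.29 to 0.0933 for Trim28, -0.30 to 0.16 for Trim3, -0.20 to 0.42 for Trim34b, -0.17 to 0.16 for Trim35, -0.48 to 0.84 for Trim36, -0.0263 to 0.25 for Trim37, -0.0728 to 0.80 for Trim6 and -0.0785 to 0.20 for Trim8. The cause was not tested. Trim30a, Trim30c, Trim30d, Trim34a and Trim21 kept their sign without any 1 library. In each of them both knockouts lay above both controls, so leaving out 1 library could not turn the sign.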
